A study of Mus musculus with 48 samples.

Results

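The alpha-arrestin genes Txnip, Arrdc1, Arrdc2, Arrdc3 and Arrdc4 were followed through RNA sequencing (RNA-seq) and ribosome profiling (Ribo-seq) of Ba/F3 cells, a mouse pro-B cell line that grows on interleukin 3. The members were taken by gene symbol and make up 5 of the 55487 genes in the deposited table. The family was chosen by the measured RNA and efficiency changes of Arrdc3 and Txnip in the Rps15 mutants. The members' values in Rps15 P131S against WT and Rps15 H137Y against WT are therefore given as a description, without a p-value. The comparison between the Rps15 mutants uses the same libraries, and its p-values for Arrdc3 and Txnip are a description too. The panel holds 24 clones, 3 for each of 8 genotypes. The mutants, made with CRISPR-Cas9, have lost 1 copy of Rpl5, Rpl11 or Rpl22 (Rpl5+/-, Rpl11+/-, Rpl22+/-) or both copies of Rpl22 (Rpl22-/-), or carry the substitution R98S in Rpl10 or P131S or H137Y in Rps15, written in the titles as on both copies (the RNA titles of P131S name it once); WT clones are the controls. All clones were grown in serum with interleukin 3 and received a short cycloheximide treatment before harvest. Each clone's lysate was divided into 1 RNA library (polyA-selected) and 1 footprint library (fragments of 28 to 30 nt protected by ribosomes), so each value below comes from 1 clone.

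Alpha-arrestins share the arrestin fold with the beta-arrestins and visual arrestins, and most carry short proline-tyrosine motifs that recruit NEDD4-family ubiquitin ligases to cargo at membranes. Txnip also binds reduced thioredoxin and promotes internalisation of glucose transporters. Transcription of Txnip and Arrdc4 is known to respond to glucose through the factor pair MondoA (encoded by Mlxip) and Mlx, which binds carbohydrate-response elements built from paired E-box-like motifs.

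The sequence upstream of the annotated start is shown for Txnip and Arrdc4, the textbook glucose-responsive pair, and for Arrdc3, whose fitted RNA and footprint changes in the Rps15 mutants had opposite signs. The sequences are RefSeq's on GRCm38.p6, 5′ to 3′ on the gene's strand, with capitals marking 3 motifs on either strand: the CCAAT box, the E-box with the letters CACGTG, and the paired E-box-like motif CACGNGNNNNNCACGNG.
Txnip, chr3:96557817-96557956, plus strand: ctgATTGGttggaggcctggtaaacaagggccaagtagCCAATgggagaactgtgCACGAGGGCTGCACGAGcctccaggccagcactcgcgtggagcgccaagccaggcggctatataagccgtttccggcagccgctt
Arrdc4, chr7:68749269-68749448, minus strand: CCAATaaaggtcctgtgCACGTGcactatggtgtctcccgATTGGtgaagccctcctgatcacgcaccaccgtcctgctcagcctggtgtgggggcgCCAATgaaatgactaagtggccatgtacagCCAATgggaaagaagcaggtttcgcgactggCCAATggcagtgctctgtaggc
Arrdc3, chr13:80883194-80883383, plus strand: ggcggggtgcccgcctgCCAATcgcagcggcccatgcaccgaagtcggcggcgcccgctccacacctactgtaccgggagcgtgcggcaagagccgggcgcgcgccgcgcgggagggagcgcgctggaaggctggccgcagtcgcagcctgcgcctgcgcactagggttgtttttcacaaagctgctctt

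Each motif was searched on both strands of windows of 300 bases, most of them upstream of the start. The paired motif was found once in the Txnip window and in 16 of 32851 windows in all (0.0487%). It had no match in the windows of Arrdc4, Arrdc1, Arrdc2 or Arrdc3. CACGTG was found once in the Arrdc4 window and in 7.15% of all windows. CCAAT, found in 37.4% of windows, occurred 2 times in the window of Txnip, 6 times in that of Arrdc4, 5 of them in the stretch shown, and 3 times in that of Arrdc2. Arrdc3 had 1 match in 2 of its 3 windows, which overlap and share the same site, and Arrdc1 had none. These matches describe the letters only.

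RNA libraries held 13029073 to 38258559 estimated counts and footprint libraries 15598994 to 72044439. Levels are given as CPM, counts scaled to 1 common library size with TMM factors, which correct for library composition. The edited gene was lower than in WT in each haploinsufficient genotype, with RNA of Rpl5 at 67.2%, Rpl11 at 64.1% and Rpl22 at 72% of the WT mean. In Rpl22-/- the footprints of Rpl22 were 274 CPM in clone 649 and 317 CPM in clone 776, but 1544 CPM in the library labelled Rpl22-/- clone 30, within the 1429 to 1596 CPM of the Rpl22+/- clones, so log2 changes of Txnip, Arrdc1 and Arrdc3 in Rpl22-/- are also given without it. The substitutions cannot be checked from gene totals. Rps15 RNA was 1433 to 1455 CPM in WT, but 907, 1825 and 1935 CPM in P131S (clones 24, 63 and 20) and 1829, 817 and 875 CPM in H137Y (clones 16, 6 and 2), so the clones of each Rps15 mutant lay on both sides of WT. Among markers of the pro-B lineage and of Ba/F3 growth, Kit, Pax5, Ebf1, Vpreb1 and Igll1 stayed below 1 CPM in every RNA library, while Ptprc ranged from 167 to 302 CPM and the interleukin 3 receptor gene Csf2rb from 449.5 to 1720 CPM. The summed granulocyte and monocyte markers were 32.2 to 47.9 CPM in WT, 57.0 to 173 CPM in Rps15 P131S and 66.3 to 262 CPM in Rps15 H137Y, with Elane below 1 CPM in every library. The summed pro-B and growth markers were 1144 to 1276 CPM in WT, 2492 to 3136 CPM in P131S and 1615 to 2712 CPM in H137Y, and the erythroid markers 95.7 to 117, 62.9 to 98.8 and 140 to 375 CPM, with none of the 4 below 1 CPM throughout. The pro-B and growth sum rests mostly on Csf2rb, Csf2rb2 (369 to 1092 CPM) and Ptprc. The mast cell and basophil markers summed to 441 to 474.5 CPM in WT, 432.5 to 580 in P131S and 342 to 427 in H137Y. Of these, Fcer1a and Ms4a2 stayed below 1 CPM in every library. The part of these lists in the members' values was not tested. A bulk library does not tell fewer expressing cells from less RNA per cell.

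Among the members, 4 of 5 passed the filter on low counts at every level and Arrdc4 did not. At the RNA level, with adjusted p below 0.05 in edgeR's test across all genes, 1 of the 4 (Txnip) was called in Rpl11+/-, where 11.8% of all tested genes were called. In Rpl22+/- 1 of 4 (Arrdc3) was called against 3.90% of all genes, and in Rpl22-/- 1 of 4 (Arrdc3) against 5.27%. None of the 4 was called in Rpl5+/- (1.04% of all genes), in Rpl10 R98S (12.9%) or between Rps15 P131S and Rps15 H137Y (25.2%); the unadjusted p was below 0.05 for 0, 0 and 1 of the 4, and DESeq2 and limma called 0. In the contrasts that had shaped the choice, 1 of 4 (Arrdc3) passed in Rps15 P131S (47.0% of all genes) and in Rps15 H137Y (41.0%), and nothing is read from those counts. The 7 mutant comparisons share the 3 WT clones and are therefore not independent of each other.

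Footprints gave no call for any of the 4 members. The share of all 16217 genes called was 0.0123% in Rpl5+/-, 0.0740% in Rpl11+/-, 0.253% in Rpl22+/-, 0.105% in Rpl22-/-, 1.62% in Rpl10 R98S, 16.7% in Rps15 P131S, 11.7% in Rps15 H137Y and 4.17% between the Rps15 mutants. At an unadjusted p below 0.05 stood Txnip in Rpl11+/-, Rpl22+/- and Rpl22-/-, and Txnip and Arrdc1 between the Rps15 mutants; limma called none of these and DESeq2 only Txnip in Rpl11+/-. Translational efficiency, the change in footprints beyond that in RNA, was called for 1 of 4 members (Arrdc3) in Rps15 P131S and in Rps15 H137Y, where 3.14% and 2.76% of all 16568 genes were called, and nothing is read from these counts either. It was called for 0 of 4 in Rpl5+/- (0.0% of all genes), Rpl11+/- (0.0%), Rpl22+/- (0.00604%), Rpl22-/- (0.0121%), Rpl10 R98S (0.217%) and between the Rps15 mutants (0.682%). The unadjusted p was below 0.05 for Arrdc3 in Rpl10 R98S and for Arrdc1 between the Rps15 mutants, and DESeq2 and limma called 0 in these 6 comparisons. Over all genes, edgeR's unadjusted p was below 0.05 for 450 genes in Rpl5+/- and 637 in Rpl11+/-, and DESeq2 called 29 and 42.

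**Figure D1:**
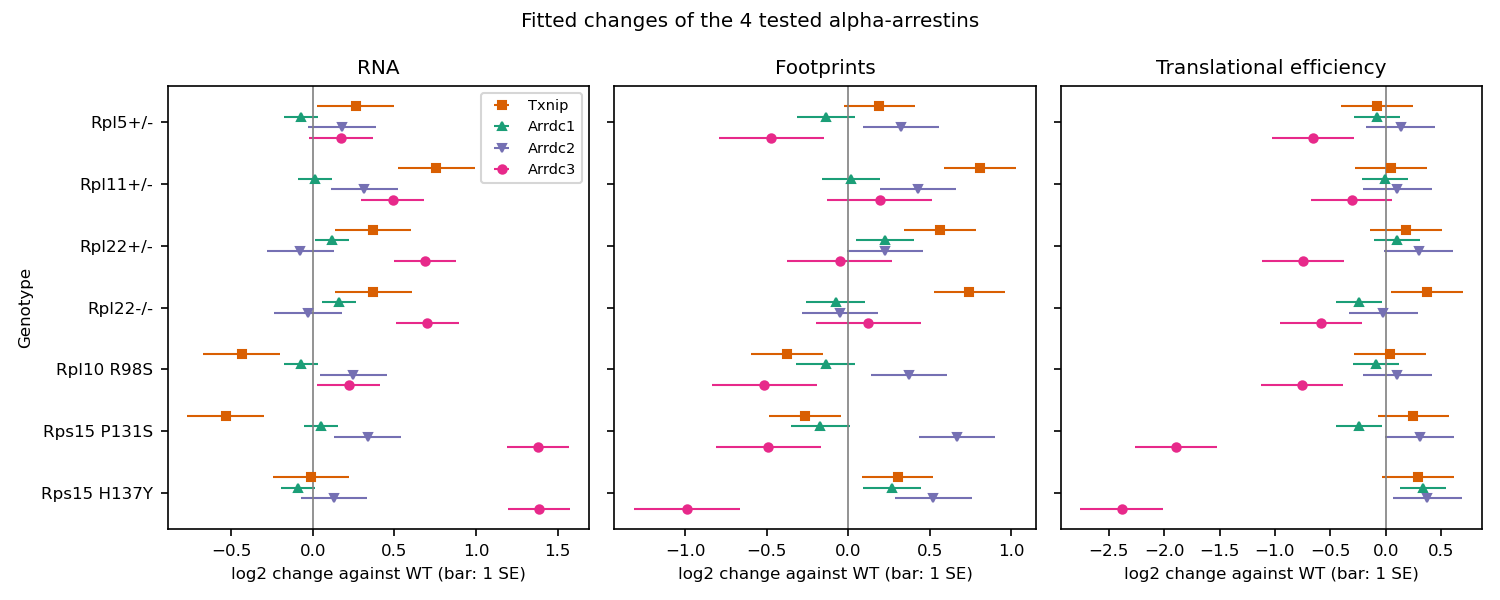
Fitted log2 change against WT (horizontal axis) of Txnip, Arrdc1, Arrdc2 and Arrdc3 in each mutant genotype (vertical axis) for RNA, footprints and translational efficiency; points are estimates and bars 1 standard error. Arrdc3 lies right of 0 for RNA in all 7 genotypes and left of 0 for efficiency in all 7, down to -2.38 in Rps15 H137Y, while Txnip moves in the same direction in RNA and footprints except in Rps15 H137Y.

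Txnip, the thioredoxin-binding member (chromosome 3, 96557957 to 96561857), had the same broad order in RNA and footprints: highest in Rpl11+/- and low in Rpl10 R98S and Rps15 P131S. In WT its RNA was 678, 533 and 572 CPM (clones 3, 2 and 1). In Rpl11+/- it was 726.5, 1039 and 1248 CPM (clones 406, 414 and 22), above every WT clone, as 16.5% of all tested genes were, but with a wide spread between clones. The log2 change was 0.76 (SE 0.24, adjusted p = 0.0454). This call stands at the threshold: leaving out 1 of the 6 clones gave changes of 0.57 to 0.94 with adjusted p from 0.0273 to 0.217, and 5 of these 6 fits lost the call. It was also lost with limma (adjusted p = 0.0542), without the filter (0.0932) and with only these 2 genotypes in the fit (0.0791), and it held with DESeq2 (0.0121).

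In Rpl5+/- Txnip RNA was 681, 759 and 701 CPM (clones 80, 76 and 68). In Rpl22+/- it was 707, 784 and 814 CPM (clones 13, 16 and 60), and in Rpl22-/- 744, 830 and 733 CPM (clones 649, 30 and 776). These 9 libraries were all above the highest WT value of 678 CPM, but the log2 changes of 0.26 (SE 0.24, adjusted p = 0.653), 0.37 (SE 0.24, adjusted p = 0.504) and 0.37 (SE 0.24, adjusted p = 0.454) did not pass the test. Of all tested genes, 16.6%, 15.0% and 16.4% had every clone above WT in these genotypes. In Rpl10 R98S it was 478, 413 and 428 CPM (clones A30, A29 and A34), all below WT (22.7% of all genes), with a log2 change of -0.44 (SE 0.24, adjusted p = 0.238). In Rps15 P131S it was 481, 497 and 256 CPM (clones 24, 63 and 20), a log2 change of -0.53 (SE 0.24), with clone 20 the lowest of all 24. In Rps15 H137Y it was 744, 387 and 641 CPM (clones 16, 6 and 2), spanning the WT range, a log2 change of -0.01 (SE 0.23). By mean RNA level the order ran from Rpl11+/- (1004 CPM) through Rpl22-/- (769), Rpl22+/- (768), Rpl5+/- (714), WT (595), Rps15 H137Y (591) and Rpl10 R98S (440) to Rps15 P131S (411). Neighbours in this order overlapped between clones, except Rpl5+/- and WT.

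Footprints of Txnip were 1192, 1047 and 1383 CPM in WT (clones 3, 2 and 1). They were 1497, 2126 and 2728 CPM in Rpl11+/-, 1658, 1942 and 1741 CPM in Rpl22+/- and 1996, 2200 and 1866 CPM in Rpl22-/-, in the clone order given for RNA. All 9 of these libraries were above WT, yet the log2 changes of 0.81 (SE 0.22, adjusted p = 0.158), 0.56 (SE 0.22, adjusted p = 0.278) and 0.74 (SE 0.22, adjusted p = 0.319) did not pass the test over all genes. In footprints 7.92%, 9.17% and 9.62% of all genes had every clone above WT. Rpl5+/- footprints of 1447, 1367 and 1320 CPM overlapped WT, and the fitted difference was 0.19 (SE 0.22, adjusted p = 1.0). Rpl10 R98S gave 947, 834 and 1011 CPM, below WT (12.9% of all genes), and the fitted difference was -0.38 (SE 0.22, adjusted p = 0.491). Rps15 P131S gave 1229, 1233 and 553 CPM, a log2 change of -0.26 (SE 0.22) that became 0.02 without clone 20. Rps15 H137Y gave 1518, 1469 and 1480 CPM, the tightest group (1489 ± 25.7, SD, n = 3) although its RNA varied from 387 to 744 CPM. All 3 were above WT (14.1% of all genes), by a fitted log2 of 0.30 (SE 0.22). By mean footprint level the order was Rpl11+/- (2117 CPM), Rpl22-/- (2021), Rpl22+/- (1780), Rps15 H137Y (1489), Rpl5+/- (1378), WT (1207), Rps15 P131S (1005) and Rpl10 R98S (931). Clones of neighbours in this order overlapped, except those of Rps15 H137Y, which lay clear of Rpl22+/- above and of Rpl5+/- below.

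The fitted footprint changes of Txnip had the sign of its RNA changes in every genotype except Rps15 H137Y. There the footprints stayed at 1469 to 1518 CPM while the RNA ran from 387 to 744 CPM. The footprint to RNA ratio stayed between 1.76 and 2.68 in 23 clones and reached 3.79 in Rps15 H137Y clone 6, whose RNA was low and whose footprints were not. The log2 change in efficiency lay between -0.08 (Rpl5+/-) and 0.37 (Rpl22-/-), each with SE 0.32, and in the 5 genotypes other than the Rps15 mutants each adjusted p was 1.0. The main efficiency fit did not pair the RNA and footprint libraries of a clone. With the clone as a block, which pairs them, the Rpl22-/- change was 0.37 (SE 0.16, adjusted p = 0.773). The Rpl22-/- ratios of 2.68, 2.65 and 2.54 were above those of WT (1.758, 1.962 and 2.416), as for 10.6% of all genes. Without clone 30 the log2 changes of Txnip in Rpl22-/- were 0.31 for RNA (SE 0.27, adjusted p = 0.686), 0.68 for footprints (SE 0.24, adjusted p = 0.706) and 0.37 for efficiency (SE 0.37, adjusted p = 1.0).

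**Figure D2:**
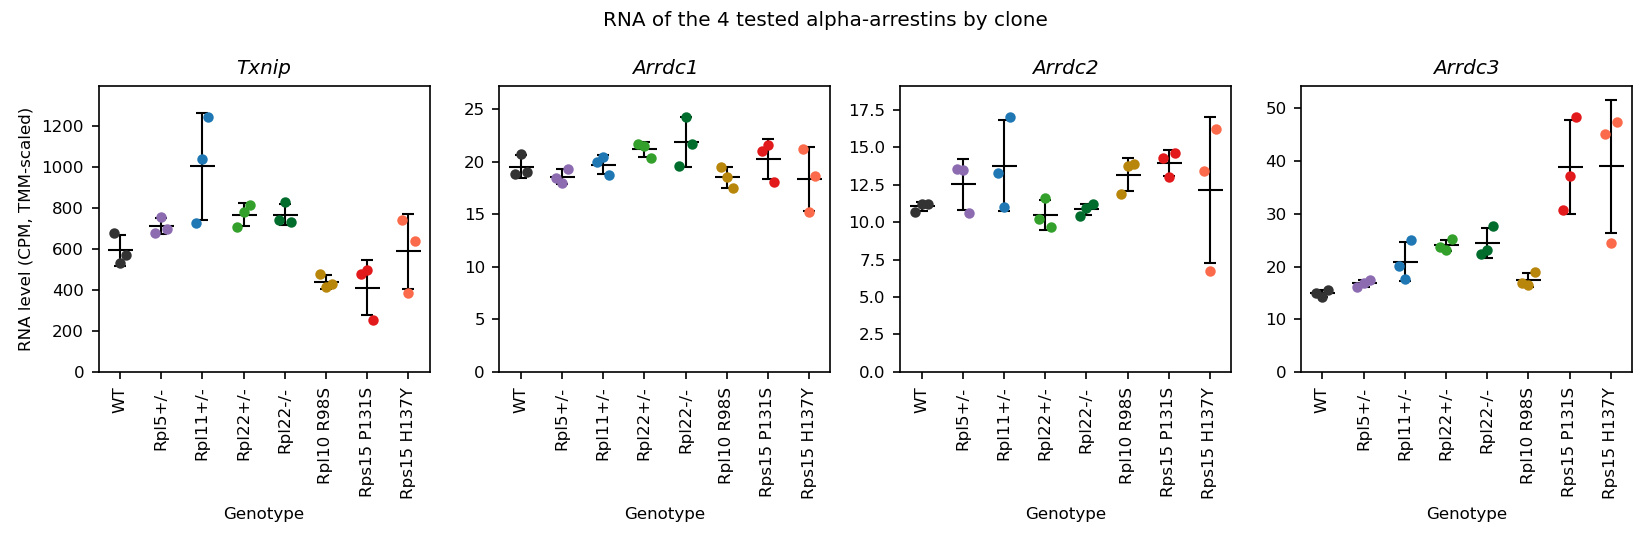
RNA level (vertical axis, CPM after TMM scaling) of Txnip, Arrdc1, Arrdc2 and Arrdc3 in the 8 genotypes (horizontal axis); each point is 1 clone, and the horizontal dash and bars give the mean ± SD of 3 clones. Txnip is highest in Rpl11+/- (727 to 1248 CPM), and Arrdc3 in all mutant clones lies above the highest WT clone of 15.5 CPM.

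Arrdc4, the closest relative of Txnip in glucose responsiveness (chromosome 7, 68736994 to 68749238), gave 0 counts in all 24 RNA libraries. With 644533625 RNA counts in all, a count of 0 allows up to 0.0784 to 0.230 CPM in a single library, for counting error only. In footprints it had 6 counts, in 5 of 24 libraries and at most 2 in one, and it entered no test. The RNA of Txnip overlaps that of the non-coding gene Gm15441 (chromosome 3, 96555768 to 96566801), and whether the counting used strand is not given in the sources used here. Gm15441 had 0.167 to 2.51 CPM of RNA and was lowest in Rps15 P131S clone 20, the clone with the lowest Txnip; its counts came to 0.0653% to 0.391% of those of Txnip, which were 6601 to 34600 per RNA library.

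Arrdc3, an adaptor reported to drive ubiquitination of the beta-adrenergic receptor and of integrin beta chains (chromosome 13, 80883384 to 80896042), had RNA and footprint changes of opposite sign in both Rps15 mutants. Its RNA was lowest in WT, at 15.0, 14.3 and 15.5 CPM (clones 3, 2 and 1). It was 23.7, 23.2 and 25.2 CPM in Rpl22+/- (clones 13, 16 and 60) and 22.4, 23.1 and 27.7 CPM in Rpl22-/- (clones 649, 30 and 776). Every one of these clones was above WT, as for 15.0% and 16.4% of all genes, and both changes passed the test, with log2 changes of 0.69 (SE 0.19, adjusted p = 0.0470) and 0.70 (SE 0.19, adjusted p = 0.0364). Leaving out any 1 clone lost both calls: adjusted p ran from 0.111 to 0.157 in Rpl22+/- and from 0.0597 to 0.151 in Rpl22-/-, while the log2 change stayed at 0.65 to 0.72 and 0.61 to 0.76. Without clone 30 the change in Rpl22-/- was 0.74 (adjusted p = 0.0819). Both were also lost with limma (adjusted p = 0.0886 and 0.0991) and without the filter (0.102 and 0.0826), and both held with DESeq2 (0.0103 and 0.00643) and with only the 2 genotypes compared (0.000429 and 0.00152).

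The remaining large-subunit genotypes had smaller values. Arrdc3 RNA was 20.2, 17.6 and 25.0 CPM in Rpl11+/- (clones 406, 414 and 22), a log2 change of 0.49 (SE 0.19, adjusted p = 0.0994). It was 16.2, 16.8 and 17.5 CPM in Rpl5+/- (clones 80, 76 and 68), a log2 change of 0.17 (SE 0.19, adjusted p = 0.733). In Rpl10 R98S it was 16.8, 16.6 and 18.95 CPM (clones A30, A29 and A34), a log2 change of 0.22 (SE 0.19, adjusted p = 0.488). These 9 clones too lay above all 3 WT clones, by amounts that did not pass the test. The fit took its spread from the clones of all genotypes together. The SD of Arrdc3 RNA was 0.646 CPM in WT, 0.645 in Rpl5+/-, 1.31 in Rpl10 R98S and 3.77 in Rpl11+/-. It was 8.92 CPM in Rps15 P131S and 12.7 in Rps15 H137Y. Every clone was above WT for 16.5% of all genes in Rpl11+/-, 16.6% in Rpl5+/- and 23.5% in Rpl10 R98S. The Rps15 mutants had the highest values, 30.8, 37.2 and 48.4 CPM in P131S (clones 24, 63 and 20) and 45.1, 24.4 and 47.4 CPM in H137Y (clones 16, 6 and 2). Their log2 changes were 1.38 (SE 0.19) and 1.39 (SE 0.19). Every clone was above WT, as for 28.3% of all genes in P131S and 25.0% in H137Y. In order of mean RNA, Rps15 H137Y (39.0 CPM) and P131S (38.8) overlapped, P131S lay clear of Rpl22-/- (24.4), the neighbours from Rpl22-/- through Rpl22+/- (24.0), Rpl11+/- (20.9), Rpl10 R98S (17.4) and Rpl5+/- (16.8) overlapped pairwise, and WT (14.9) lay below.

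Footprints of Arrdc3 did not show a rise that passed the test. In WT they were 8.56, 8.13 and 7.83 CPM, and in Rpl22+/- 7.53, 6.94 and 9.22 CPM, overlapping WT with a log2 change of -0.05 (SE 0.32, adjusted p = 0.967). In Rpl22-/- they were 7.81, 8.47 and 10.4 CPM, a log2 change of 0.12 (SE 0.32, adjusted p = 1.0), and in Rpl11+/- 7.42, 7.11 and 13.5 CPM, a log2 change of 0.19 (SE 0.32, adjusted p = 0.956). So in the Rpl22 genotypes, where RNA passed the test, the intervals of the footprint change (95%, -0.68 to 0.58 and -0.50 to 0.75) held both no change and, in Rpl22-/-, one as large as in RNA. Footprints were below all WT clones in Rpl5+/- (5.75, 6.47 and 5.45 CPM), a log2 change of -0.47 (SE 0.32, adjusted p = 1.0). They were also below all WT clones in Rpl10 R98S (4.56, 5.39 and 7.21 CPM), a log2 change of -0.51 (SE 0.32, adjusted p = 0.538). Neither passed the test, and 5.23% and 12.9% of all genes had every clone below WT. In Rps15 P131S they were 8.49, 5.71 and 3.23 CPM, overlapping WT, a log2 change of -0.49 (SE 0.32, 95% interval -1.12 to 0.14). In Rps15 H137Y they were 4.58, 2.43 and 5.28 CPM, all below WT (16.4% of all genes). The log2 change there was -0.99 (SE 0.33, interval -1.63 to -0.35). These levels rest on 65 to 610 footprint counts of Arrdc3 per library.

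**Figure D3:**
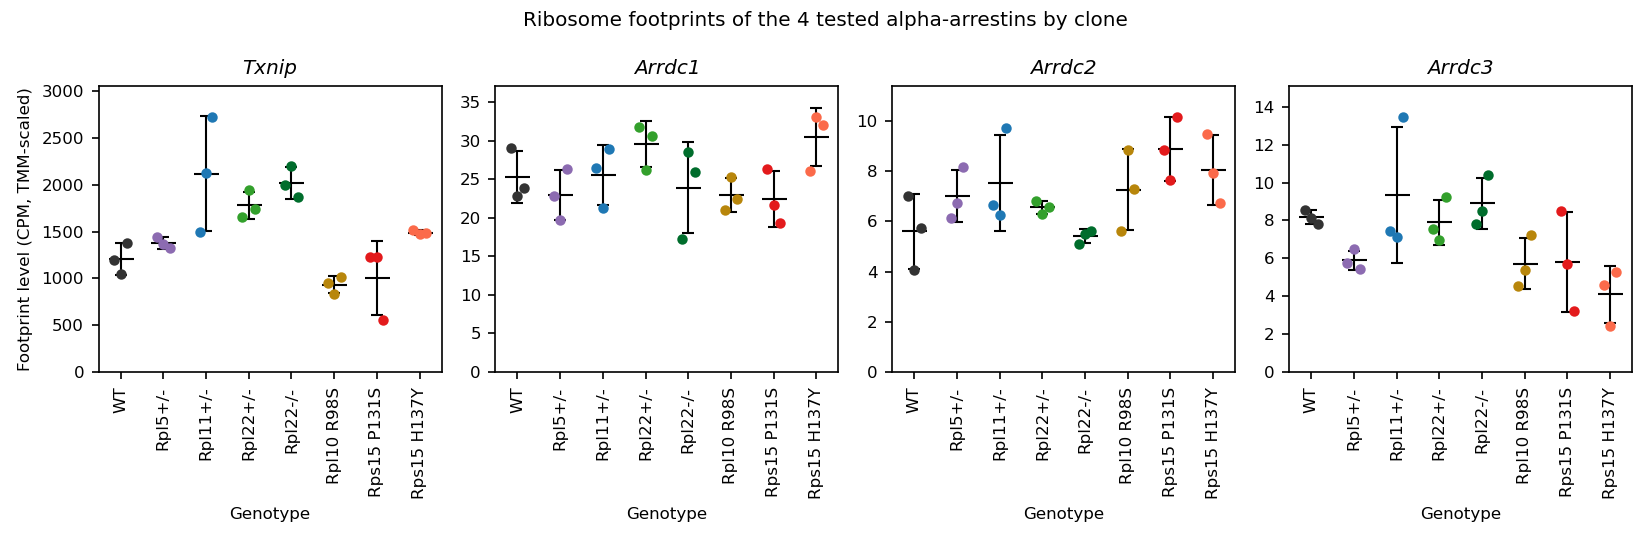
Footprint level (vertical axis, CPM after TMM scaling) of Txnip, Arrdc1, Arrdc2 and Arrdc3 in the 8 genotypes (horizontal axis); each point is 1 clone, and the dash and bars give the mean ± SD of 3 clones. Arrdc3 footprints in the Rps15 mutants are at or below those of WT, with 2.43 to 5.28 CPM in H137Y, although its RNA is highest there.

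The footprint to RNA ratio of Arrdc3 was 0.572, 0.571 and 0.504 in WT, and no mutant genotype had a mean as high. It was 0.368, 0.404 and 0.538 in Rpl11+/-, where clone 22 fell within the WT range, and 0.318, 0.299 and 0.366 in Rpl22+/-. In Rpl22-/- it was 0.349, 0.367 and 0.376, in Rpl5+/- 0.356, 0.384 and 0.312, and in Rpl10 R98S 0.272, 0.325 and 0.380. The 12 clones of those 4 genotypes were all below the WT clones, as for 9.08% of all genes in Rpl22+/-, 7.91% in Rpl22-/-, 4.44% in Rpl5+/- and 10.1% in Rpl10 R98S. The log2 changes in efficiency were -0.75 (SE 0.37, adjusted p = 0.627) in Rpl22+/-, -0.59 (SE 0.37, adjusted p = 1.0) in Rpl22-/-, -0.66 (SE 0.37, adjusted p = 1.0) in Rpl5+/-, -0.76 (SE 0.37, adjusted p = 0.652) in Rpl10 R98S and -0.31 (SE 0.37, adjusted p = 1.0) in Rpl11+/-. None passed the test across all genes, where at most 0.217% of genes did. Without clone 30 the Rpl22-/- values of Arrdc3 were 0.16 for footprints (SE 0.37, adjusted p = 1.0) and -0.58 for efficiency (SE 0.42, adjusted p = 1.0). All 5 are set against the same 3 WT clones, so a high WT ratio would enter each of them. In the Rps15 mutants the ratio was lower again, 0.276, 0.154 and 0.0668 in P131S and 0.101, 0.0993 and 0.111 in H137Y. Every clone was below WT, as for 14.5% of all genes in P131S and 12.8% in H137Y. The log2 changes in efficiency there were -1.89 (SE 0.37) and -2.38 (SE 0.37), and the 3 P131S clones spread over a wider range than the 3 H137Y clones.

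**Figure D4:**
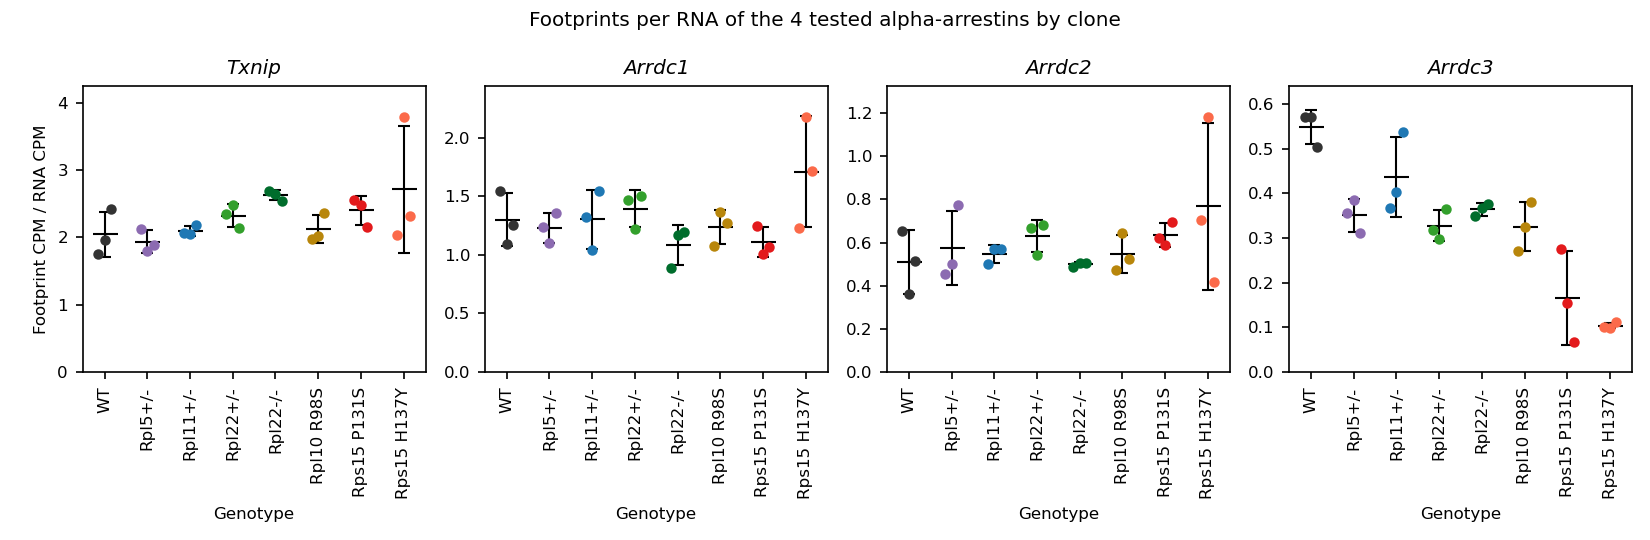
Footprint CPM divided by RNA CPM (vertical axis) of Txnip, Arrdc1, Arrdc2 and Arrdc3 by genotype (horizontal axis); each point is 1 clone, and the dash and bars give the mean ± SD of 3 clones. Arrdc3 falls from 0.504 to 0.572 in WT to at most 0.276 in the Rps15 mutants, while Rps15 H137Y clone 6 has the highest ratio of Txnip, Arrdc1 and Arrdc2.

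**Figure D5:**
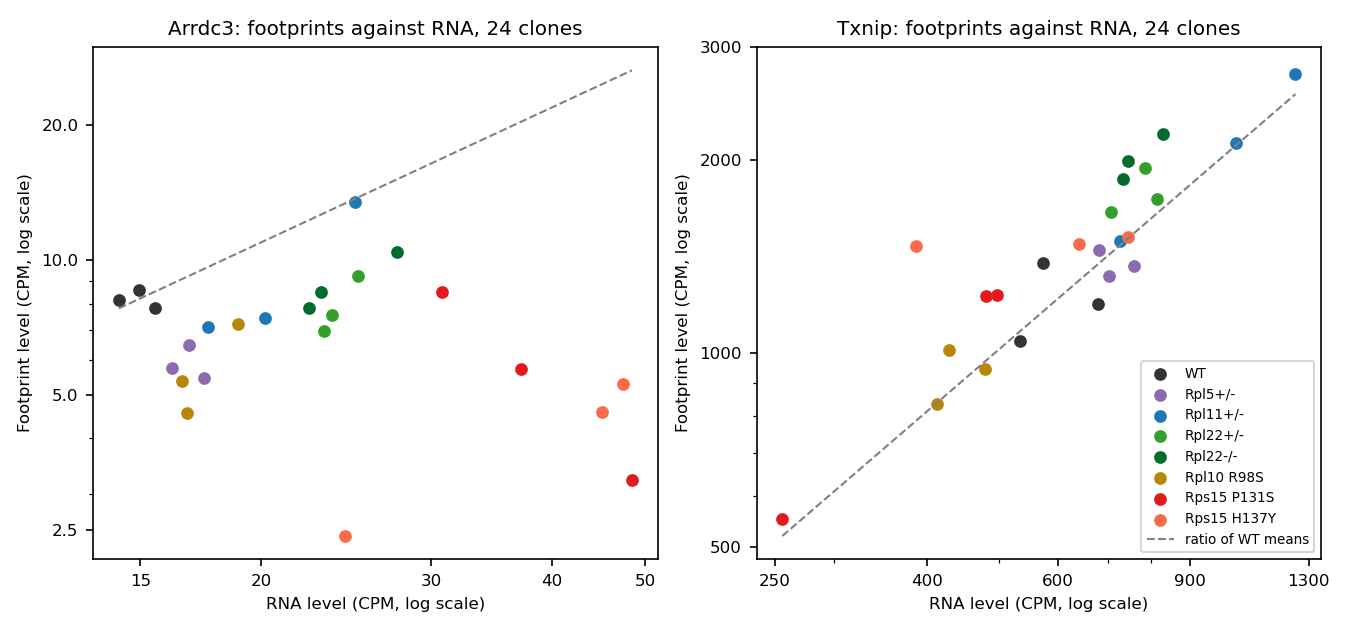
Footprint CPM (vertical, log scale) against RNA CPM (horizontal, log scale) of Arrdc3 and Txnip in the 24 clones, coloured by genotype; the dashed line is the ratio of the WT means. Txnip points run along the line from 256 to 1248 CPM of RNA, whereas Arrdc3 points leave it as RNA rises, down to 2.43 CPM of footprints at 24.4 CPM of RNA.

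Arrdc1, which recruits the ESCRT protein Tsg101 to the plasma membrane for the budding of small vesicles (chromosome 2, 24925352 to 24935335), varied least between clones in RNA and in footprints, though not in their ratio, where Txnip varied less (2.16 times between the extremes, against 2.46). Its RNA ranged from 15.2 CPM (Rps15 H137Y clone 6) through a median of 19.5 CPM to 24.3 CPM (the library labelled Rpl22-/- clone 30), 1.60 times between the extremes. Against WT (18.8, 20.8 and 18.97 CPM), clones of every mutant genotype overlapped, and fitted RNA changes ran from -0.09 (SE 0.10, Rps15 H137Y) to 0.16 (SE 0.10, adjusted p = 0.458, Rpl22-/-). The latter became 0.07 without clone 30 (SE 0.11, adjusted p = 0.864). Its footprints ranged from 17.3 to 33.1 CPM and again overlapped WT (22.8 to 29.1 CPM) in all 7 genotypes. In Rpl22-/- its efficiency change was -0.24 (SE 0.21, adjusted p = 1.0), -0.29 without clone 30, and -0.35 to -0.11 over the fits without 1 clone.

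Arrdc2, a further alpha-arrestin (chromosome 8, 70835129 to 70839720), ranged more widely, from 6.71 CPM (Rps15 H137Y clone 6) to 17.03 CPM (Rpl11+/- clone 22) in RNA. WT clones were close together at 10.7, 11.2 and 11.2 CPM. Clones of Rpl10 R98S (11.9, 13.7 and 13.9 CPM) and of Rps15 P131S (14.3, 13.0 and 14.6 CPM) were above WT (23.5% and 28.3% of all genes), with log2 changes of 0.25 (SE 0.20, adjusted p = 0.458) and 0.34 (SE 0.20). Rpl11+/- had 13.3, 10.98 and 17.03 CPM, a log2 change of 0.32 (SE 0.20, adjusted p = 0.338). Neither Rpl10 R98S nor Rpl11+/- passed the test. Footprints of Arrdc2 were 7.02, 4.05 and 5.75 CPM in WT. They were higher than in every WT clone only in Rps15 P131S (8.85, 7.63 and 10.2 CPM; 16.6% of all genes), a log2 change of 0.66 (SE 0.23), the opposite sign to Arrdc3 in the same libraries. The Rps15 H137Y change was 0.52 (SE 0.23), with clones overlapping WT, and its RNA change of 0.13 (SE 0.20) became 0.42 without clone 6 and -0.13 without clone 2.

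Between the Rps15 mutants, Arrdc3 RNA differed by a log2 of -0.01 (P131S minus H137Y, SE 0.18, 95% interval -0.37 to 0.35, adjusted p = 0.985). Its footprints differed by 0.50 (SE 0.32, interval -0.14 to 1.13, adjusted p = 0.439) and its efficiency by 0.49 (SE 0.37, interval -0.23 to 1.22, adjusted p = 0.737). Txnip was lower in P131S by 0.52 in RNA (SE 0.24, adjusted p = 0.116) and by 0.57 in footprints (SE 0.22, adjusted p = 0.157), and neither passed. Leaving out H137Y clone 6 gave an RNA difference of -0.75 for Txnip, past the threshold. Over all fits without 1 clone it ran from -0.75 to -0.28. The Rps15 values of Arrdc3 and Txnip also shaped the choice of the family, so nothing is read from the p-values of these genes here. Arrdc1 differed in efficiency by -0.58 (SE 0.21, adjusted p = 0.215) and Arrdc2 by -0.07 (SE 0.31, adjusted p = 1.0).

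Single clones stood apart for several members at once. Rps15 H137Y clone 6 had the lowest RNA of the 24 clones for Arrdc1 and Arrdc2, the lowest footprints for Arrdc3, and the highest footprint to RNA ratio for Txnip (3.79), Arrdc1 (2.18) and Arrdc2 (1.18). In the RNA library of that clone the 10 most abundant genes took 9.13% of all counts. Rps15 P131S clone 20 had the lowest Txnip RNA and footprints together with the highest Arrdc3 RNA (48.4 CPM) and the lowest Arrdc3 ratio. Whether members varied together between clones of 1 genotype was tested with deviations from the genotype mean of log2(CPM + 0.5), over 6 pairs of members at each level. In RNA the highest correlation was that of Arrdc2 and Arrdc3 (r = 0.774, permutation p = 0.0243, adjusted 0.146; rho = 0.484, permutation p = 0.0618, adjusted 0.371; 24 clones). It fell to 0.497 without H137Y clones 6 and 2, and was 0.541 (permutation p = 0.199) in the 18 clones without an Rps15 mutation. In footprints the highest r was that of Txnip and Arrdc3 (r = 0.610, permutation p = 0.115, adjusted 0.296; rho = 0.334, permutation p = 0.230, adjusted 0.461), which fell to 0.420 without P131S clone 20 and Rpl11+/- clone 406. The highest rho in footprints was that of Arrdc1 and Arrdc2 (r = 0.385, permutation p = 0.0768, adjusted 0.296; rho = 0.428, permutation p = 0.0715, adjusted 0.429). It was r = 0.343 without Rpl22-/- clone 649 and Rpl11+/- clone 414. In the 18 clones without an Rps15 mutation r was 0.632 (permutation p = 0.00335, not adjusted), and in the 6 Rps15 clones -0.572. No pair passed after adjustment over the 24 clones.

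Of 9458 genes with a mean of at least 5 CPM, those whose RNA was most like Arrdc3 over the 24 libraries were Arl2bp (r = 0.951), Crebbp (0.942), Epc2 (0.934), Zfp39 (0.931) and Ofd1 (0.929). Crebbp, which encodes a histone acetyltransferase, averaged 26.9 CPM in WT, 38.4 in Rpl22-/-, 41.8 in Rps15 P131S and 46.7 in Rps15 H137Y. For Txnip they were Klf10 (r = 0.908), Arhgef40 (0.892), Tpp1 (0.873), Cpeb4 (0.846) and Pias3 (0.844). Klf10, a zinc-finger transcription factor, averaged 21.0 CPM in WT, 44.7 in Rpl11+/-, 39.8 in Rpl22-/- and 17.6 in Rps15 P131S. These correlations describe 24 libraries that share genotypes and scaling.

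The genes around the family were counted in 7 lists, on the same fits over all genes. In these fits the median log2 change of all genes lay between -0.04 and 0.02 in every comparison. Earlier results of these data were known when the lists were chosen. The calls and adjusted p-values of list genes are therefore a description in every comparison, not independent tests. Of the carbohydrate-response factors, Mlx and Mlxip were tested and Mlxipl was not. Mlxip RNA fell from 47.4 ± 0.971 CPM in WT to 40.1 ± 2.27 in Rpl11+/- (log2 change -0.24, adjusted p = 0.0243), 38.7 ± 3.56 in Rpl22+/- (-0.29, adjusted p = 0.0162) and 38.3 ± 1.01 in Rpl22-/- (-0.31, adjusted p = 0.00919), the SD each over n = 3. Leaving out 1 clone lost the call in 4 of 6, 4 of 6 and 1 of 6 fits (adjusted p up to 0.118, 0.126 and 0.0540). In these genotypes Txnip RNA was above WT in every clone. In Rps15 H137Y Mlxip RNA rose to 56.5 ± 3.6 CPM (0.25, adjusted p = 0.00492), and its efficiency fell in P131S (-0.88, adjusted p = 0.0416) and H137Y (-1.07, adjusted p = 0.0114), calls lost in 6 of 6 and 4 of 6 fits without 1 clone.

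The thioredoxin system, which includes the binding partners of Txnip, had 9 of 10 genes tested. In RNA, 7 rose and 1 fell in Rps15 P131S (median 0.46), where 23.7% and 23.4% of all genes did, and 3 rose and 1 fell in H137Y (median 0.14; 21.0% and 20.0% of all genes). Txnrd1, a thioredoxin reductase, rose from 135 ± 2.31 to 220 ± 34.5 CPM in P131S (0.71, adjusted p = 1.04e-05). Txnrd2, the mitochondrial reductase, fell from 12.7 ± 0.792 to 5.46 ± 0.0438 CPM in H137Y (-1.21, adjusted p = 9.14e-09). In Rpl11+/- Txnrd3 rose (0.48, adjusted p = 0.0151) and Txnrd2 fell (-0.40, adjusted p = 0.00895), each lost in 2 of 6 fits without 1 clone, and in Rpl5+/-, both Rpl22 genotypes and Rpl10 R98S 0 of 9 passed in RNA.

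Of 8 tested glucose transporter and hexokinase genes, the membrane cargo and the pathway step tied to Txnip, 5 fell in Rps15 P131S (median -0.56) and 4 in H137Y (median -0.44) in RNA, and none rose; 23.4% and 20.0% of all genes fell. Slc2a3, a glucose transporter, fell from 671 ± 158 CPM to 293 ± 143 in P131S (-1.20, adjusted p = 0.00838) and 294.5 ± 100 in H137Y (-1.19, adjusted p = 0.0101). Hk2, a hexokinase, fell in Rpl22-/- (-0.45, adjusted p = 0.0344) and Rpl10 R98S (-0.40, adjusted p = 0.0338), calls lost in 6 of 6 and 5 of 6 fits without 1 clone. In Rpl5+/-, Rpl11+/- and Rpl22+/- 0 of 8 passed in RNA. In footprints 1 of 8 rose and 2 fell in P131S, and 2 fell in H137Y, beside 16.7% and 11.7% of all genes called. In efficiency only Hk2 was called in P131S, where 3.14% of all genes were. Its footprint to RNA ratio rose from 3.145 ± 0.402 in WT to 5.86 ± 0.155 (0.89, adjusted p = 0.00452).

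Of the NEDD4-family ligases and adaptors that alpha-arrestins recruit, 9 of 11 were tested in RNA. Smurf2 fell in Rpl5+/- (-0.32, adjusted p = 0.0249), Rpl11+/- (-0.31, adjusted p = 0.00355), Rpl22+/- (-0.25, adjusted p = 0.0286) and Rpl22-/- (-0.24, adjusted p = 0.0313). It was the only 1 of the 9 called in each, beside 1.04%, 11.8%, 3.9% and 5.27% of all genes. Without 1 clone the Rpl11+/- call held in 6 of 6 fits, and the others were lost in 6, 5 and 5 of 6. In Rps15 P131S 1 rose and 4 fell, and in H137Y 1 rose and 3 fell, beside 47.0% and 41.0% of all genes called; Wwp1 fell in both (-0.60, adjusted p = 5.6e-05, and -0.53, adjusted p = 0.000249). Among 8 ESCRT and vesicle partners of Arrdc1, 2 fell in P131S, and 1 rose and 3 fell in H137Y, beside the same 47.0% and 41.0% of all genes. Vps37a fell in both (-0.36, adjusted p = 0.0034, and -0.40, adjusted p = 0.00164), and its paralog Vps37b rose in H137Y (0.50, adjusted p = 0.00111). Of 6 tested other arrestin-fold genes, 1 fell in Rpl11+/- (Vps26c, -0.32, adjusted p = 0.0441, lost in 5 of 6 fits without 1 clone), beside 11.8% of all genes called. In P131S 1 rose and 3 fell, and in H137Y 1 rose and 2 fell, again beside 47.0% and 41.0% of all genes. The beta-arrestin gene Arrb1 fell in P131S from 138 ± 8.22 to 83.4 ± 40.2 CPM (-0.73, adjusted p = 0.0298, lost in 3 of 6 fits without 1 clone).

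Among 5 tested partners reported for Txnip or Arrdc3, 2 rose and 2 fell in RNA in each Rps15 mutant and 1 rose and 1 fell in Rpl11+/-. Of all genes, 47.0% were called in P131S, 41.0% in H137Y and 11.8% in Rpl11+/-. Nlrp3, the inflammasome sensor, was 0.0930 ± 0.0977 CPM in WT and rose to 0.716 ± 0.297 in Rpl11+/- (adjusted p = 0.0396, lost in 4 of 6 fits without 1 clone), 2.90 ± 1.83 in P131S (adjusted p = 0.00011) and 2.79 ± 1.4 in H137Y (adjusted p = 0.000152); no fold is given because WT was near 0. Ddit4, which encodes a stress-induced inhibitor of mTORC1 that binds Txnip, fell in the RNA of all 7 mutant genotypes. It averaged 70.2 ± 7.70 CPM in WT (SD, n = 3), 39.7 ± 4.74 in Rpl5+/-, 33.3 ± 3.40 in Rpl11+/-, 32.6 ± 4.26 in Rpl22+/-, 24.9 ± 5.71 in Rpl22-/-, 32.0 ± 0.674 in Rpl10 R98S, 15.7 ± 4.88 in Rps15 P131S and 19.4 ± 3.35 in Rps15 H137Y. The log2 changes ran from -0.82 (adjusted p = 0.0355, Rpl5+/-) to -2.16 (adjusted p = 1.29e-07, P131S), all against the same 3 WT clones. Without 1 clone the Rpl5+/- call was lost in 6 of 6 fits (adjusted p 0.0757 to 0.211) and those of the other 6 genotypes held. Footprints of Ddit4 fell in Rpl22-/- (-1.54, adjusted p = 0.0256, lost in 5 of 6 fits without 1 clone), P131S (-1.96, adjusted p = 0.000155) and H137Y (-1.82, adjusted p = 0.000357). Itgb4, the integrin subunit reported as cargo of Arrdc3, fell in Rpl5+/- RNA (-0.36, adjusted p = 0.0346), a call lost in 6 of 6 fits without 1 clone.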

How the data were processed

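The values are estimated counts per gene that the authors deposited in 1 table of 48 libraries; the submitters' processing notes name STAR 2.6.1d, Salmon 1.4.0, DESeq2 1.30 and GRCm38, with no role for each. Counts with decimals (11.5% of values not whole) were rounded. RNA libraries (24), footprint libraries (24) and both together were fitted with edgeR 4.0.16 (R 4.3.3; TMM scaling, filterByExpr by genotype, robust quasi-likelihood test, two-sided), with 1 mean per genotype, and p-values were Benjamini-Hochberg adjusted over 12814, 16217 and 16568 genes per comparison (threshold 0.05). Efficiency is the interaction of assay and genotype, with TMM within assay. DESeq2 1.42.0, limma 3.58.1 (voom, no rounding), DESeq2 size factors, no filter, only the compared genotypes, the clone as a block and leaving out each clone were alternatives. The fits were also run on simulated counts. These had the same spread for every gene and no pairing within a clone, so they do not show how the fits perform at the members' own spread.

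Clone numbers pair RNA and footprints because 1 lysate was divided; deviations of same-numbered libraries correlated at 0.168 to 0.613 in 24 of 24 clones (9525 genes). Replicates are clones, and p-values measure the spread between clones, estimated over all genotypes in the main fits. The labels name no batch. No transcript lengths were used, so levels of different members are not compared. The members, lists and markers were chosen with earlier results of these data known. All 5 members are named; from each list, at most the 2 largest called changes per comparison whose clones did not overlap; and the 5 genes most like Arrdc3 and Txnip. A marker gene is not reported here.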

Additional observations from a re-analysis of the deposited data

How the results depend on the processing

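The number of members called at the RNA level became 0 in Rpl11+/- with limma, without the filter and with only the 2 genotypes compared, and 0 in Rpl22+/- and Rpl22-/- with limma and without the filter. With only the 2 genotypes compared it became 2 in Rpl22-/-, 3 in Rpl10 R98S and 2 in Rps15 P131S, where DESeq2 also gave 2. Over all genes the 2-genotype fits called 1436 of 11928 in Rpl22-/-, 4216 of 11917 in Rpl10 R98S and 5180 of 11917 in P131S. DESeq2 called 6112 of 12814 in P131S, and nothing is read from these member counts. In footprints DESeq2 gave 1 in Rpl11+/-, Rps15 P131S and Rps15 H137Y, and limma and DESeq2 size factors gave 1 in Rps15 P131S. Of 16217 genes, DESeq2 called 240, 3397 and 2570 in these genotypes. In P131S limma called 3092 and DESeq2 size factors 2758. Leaving out 1 clone gave, in RNA, 0 to 1 in Rpl11+/-, 0 in Rpl22+/- and Rpl22-/-, 1 to 2 in Rps15 P131S and H137Y and 0 to 1 between them, and, in footprints, 0 to 1 in Rps15 P131S and H137Y. The cause was not tested. The counts of members in efficiency stayed as reported under all alternatives run.

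Several changes near 0 turned sign. Arrdc3 RNA between the Rps15 mutants became 0.031 with limma and 0.000693 without the filter. Leaving out 1 clone gave, for Arrdc3, -0.25 to 0.16 in that difference, -0.025 to 0.99 in the efficiency difference, and footprint changes in Rpl22-/- of -0.015 to 0.20, in Rpl22+/- of -0.18 to 0.037 and in Rpl11+/- of -0.18 to 0.35. For Txnip it gave -0.21 to 0.22 in Rps15 H137Y RNA, -0.41 to 0.024 in Rps15 P131S footprints, and efficiency changes in Rpl10 R98S of -0.053 to 0.19, in Rpl11+/- of -0.064 to 0.18, in Rpl5+/- of -0.19 to 0.057 and between the Rps15 mutants of -0.22 to 0.19. For Arrdc2 it gave -0.13 to 0.42 in Rps15 H137Y RNA and -0.42 to 0.23 in the efficiency difference between the Rps15 mutants. Among 38 plotted changes of Arrdc1 and Arrdc2 without a value in the text, 14 turned sign in at least 1 fit and 0 fits changed a call. With the clone as a replicate block, pairing RNA and footprints, Arrdc3 efficiency was -0.78 in Rpl10 R98S (adjusted p = 0.395) and -0.755 in Rpl22+/- (adjusted p = 0.429), and the block changed no call of a member.

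Counts over all genes moved more. In Rpl5+/- RNA edgeR called 133 genes, DESeq2 387, the fit without the filter 49, the 2-genotype fit 1868 and the fits without 1 clone 1 to 28. In Rpl11+/- footprints 12 became 240 with DESeq2, and between the Rps15 mutants 3234 RNA calls became 378 with 2 genotypes. In the fit without pairing, the SE of an efficiency change was 0.37 for Arrdc3 and 0.32 for Txnip. Their footprint counts per library were 65 to 610 and 26860 to 155600. With the clone as a block the SE in Rpl22-/- was 0.30 for Arrdc3 and 0.16 for Txnip.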
